A study of Mus musculus with 4 samples.

Results

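The genes of oxidative phosphorylation were described in CD4 T cells of the mouse colon. They were taken by name: every mitochondrial gene (prefix mt-), every gene named Nduf, Cox4 to Cox8, Atp5 or Uqcr, and Cyc1, Cycs, Sdha, Sdhb, Sdhc and Sdhd. That gave 108 of the 25724 genes in the table, of which 13 are encoded by the mitochondrial genome and 95 by the nucleus. CD45+ TCRb+ CD4+ cells were sorted from the lamina propria, the connective tissue under the gut epithelium, after digestion with collagenase and dispase, and were profiled by inDrops, which captures single cells in droplets with barcoded oligo dT primers. The labels name 4 samples, Btheta_colon 1 to 4, in 1 group; the mice were B6 males at an age of 6 weeks. The labels give no genotype or treatment beyond that name. The barcodes carry no sample, so the table is 1 sample: intervals below are 95% intervals that cover counting error only, no p-value exists, and no difference has a check against replicates.

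Oxidative phosphorylation passes electrons from NADH and succinate through complexes I and II, ubiquinone, complex III, cytochrome c and complex IV to oxygen, and complex V, the ATP synthase, uses the proton gradient that results. Complex II is encoded wholly by the nucleus, whereas complexes I, III, IV and V also hold subunits translated inside the mitochondrion. In T cells, resting, memory and regulatory cells are known to rely on this pathway more than freshly activated effector cells, which take up more glucose for glycolysis. Transcripts of the 2 genomes are made by different polymerases, and the mitochondrial ones are cut from long precursors, so the sets are described apart.

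The mitochondrial sequences that follow show why some of these genes cannot be counted independently of each other. Of the 13 genes, 12 are read from the + strand and mt-Nd6 from the other. The reading frames of mt-Atp8 and mt-Atp6, known to share 1 messenger RNA, overlap by 43 bases at chrM:7927-7969 on the + strand, and those of mt-Nd4l and mt-Nd4, also known to share 1, overlap by 7 bases at chrM:10167-10173. The overlaps are in capitals, with 15 bases on each side in lower case (GENCODE vM21 transcripts, build GRCm38).
mt-Atp8 and mt-Atp6: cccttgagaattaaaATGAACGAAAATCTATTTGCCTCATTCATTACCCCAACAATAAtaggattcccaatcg
mt-Nd4l and mt-Nd4: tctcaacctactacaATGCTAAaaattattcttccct
The next 4 lines give the last 30 bases of 4 mitochondrial transcripts, the side from which oligo dT primes, with the stop codon or its remnant in capitals.
mt-Atp6: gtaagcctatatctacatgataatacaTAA
mt-Co2: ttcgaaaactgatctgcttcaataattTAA
mt-Cytb: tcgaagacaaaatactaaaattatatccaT
mt-Nd4: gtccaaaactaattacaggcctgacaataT
In 10 of the 13 genes the annotated reading frame ends in a whole stop codon. In mt-Co3, mt-Nd4 and mt-Cytb it ends in a lone T, where the poly(A) tail is known to complete the stop.

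Cytochrome c, the mobile carrier between complexes III and IV, has a near-identical second gene in the genome, which bears on its count. Gm10053 (chr19:24875686-24876631, + strand, build GRCm38, labelled protein coding in GENCODE vM21) matched the Cycs transcript over 946 aligned bases at 99.9% identity. The substitution was T481A, counted from 1 at the 5′ end of the Cycs transcript, and it is in capitals in the 2 windows.
Cycs: ttacaaaacaaatgTctcatggcttttaa
Gm10053: ttacaaaacaaatgActcatggcttttaa
Gm10053 held 325 counts (209.8 CPM, counts scaled to the same total), against 126 counts (81.3 CPM) for Cycs at chr6:50562563-50566538. It was detected in 15.8% of cells and Cycs in 8.48%. Gm10053 was looked at after its values were seen. Copies of at least 95% identity were found for 33 members, 9 mitochondrial and 24 nuclear, and how reads were shared among copies is not given in the sources used here, so the values of those members are uncertain to that degree. Only 5 of the 56 copy genes are in the table, with 620 counts together.

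The promoters of the nuclear genes were searched on both strands for 3 motifs of 8 bases known from genes of respiration: GCGCATGC for NRF1, CCGGAAGT for ETS factors such as GABP, and AAGATGGC for YY1. RefSeq promoter windows (GRCm38.p6) were matched for 78 of the 95 nuclear members. The NRF1 letters were found for 13 of the 78 (16.7%), against 3.05% of all 27025 genes with a window of the same length. The YY1 letters were found for 12 (15.4% against 3.19%) and the ETS letters for 5 (6.41% against 4.31%). The NRF1 motif is nearly its own reverse complement, so 1 site can match on both strands. The YY1 matches fell on 12 distinct sites, of which 9 lay after the start site on the gene's own strand, 10 to 38 bases from it. The site of Atp5sl lay 26 bases after 1 annotated start and before another. Those letters contain ATG, and whether a match lies on a start codon was not checked. A match describes letters and not binding. The next 4 promoters hold a match and belong to genes called in a comparison below. They do not show how common a match is among called genes, since others, such as Sdhc and Uqcrq, had none. Of the 4, Ndufaf4 alone kept its call when cells with markers of other lineages were left out. Each of the 4 promoters shows the 120 bases before the start site on the gene's strand, with matches in capitals.
Cycs, chr6:50566570-50566689, - strand: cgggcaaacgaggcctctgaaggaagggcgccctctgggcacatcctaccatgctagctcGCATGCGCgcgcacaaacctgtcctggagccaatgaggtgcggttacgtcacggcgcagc
Ndufaf4, chr4:24897963-24898082, + strand: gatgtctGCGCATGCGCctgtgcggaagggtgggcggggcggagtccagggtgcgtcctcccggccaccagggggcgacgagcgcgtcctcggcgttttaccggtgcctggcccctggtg
Uqcr11, chr10:80406822-80406941, - strand: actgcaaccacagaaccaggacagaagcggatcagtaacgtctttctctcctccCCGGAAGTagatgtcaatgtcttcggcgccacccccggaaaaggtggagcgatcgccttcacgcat
Atp5k, chr5:108434400-108434519, - strand: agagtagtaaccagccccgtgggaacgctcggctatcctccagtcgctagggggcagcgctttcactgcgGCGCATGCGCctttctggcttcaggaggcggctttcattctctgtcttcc
Uqcr11, a small subunit of complex III, was the 1 member of the 78 whose window held 2 kinds of motif, the ETS letters in the stretch shown and the NRF1 letters across the start site.

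Barcodes were kept as cells with at least 500 counts, at least 200 detected genes and under 20% mitochondrial counts. That left 1050 of 1985 barcodes with 1549040 counts, and a cell had a median of 1235.5 counts (501 to 13023). The mitochondrial limit cuts the very quantity described here: the highest share kept was 19.3%, and the 8 cells removed by it alone held 20.2% to 89.4%. At least 1 of 10 CD4 T cell markers was detected in 97.6% of cells. Some cells also held markers of other lineages: 97 cells held at least 2 different markers of epithelial, myeloid, B or plasma, stromal or erythroid cells, and 11 cells held at least 2 epithelial markers. Those 11 cells held 98.5% of the 3216 epithelial marker counts, 3.83% of all counts, 9.45% of the mitochondrial counts and 9.14% of the nuclear oxidative phosphorylation counts, at a median depth of 6541 counts. All 14 epithelial markers in the table had counts, and Muc2, a mucin of goblet cells, had the most with 1278. Because 9 of the 11 cells lacked Foxp3 and all 11 lacked Gata3 and the naive genes, the comparisons below are also given without the 97 cells, for short without other lineages. Most of the 97 need not be another cell type: 39 held 2 markers of 1 list, and the other 58 held markers of different lists only, all with Ighm or Pecam1, which were detected in 29.7% and 9.14% of all cells.

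Mitochondrial transcripts made up 4.89% of all counts (75799 counts) and nuclear oxidative phosphorylation transcripts 1.73% (26772 counts), a ratio of 2.83 to 1. In single cells the mitochondrial share ran from 0 to 19.3% with a median of 4.43%, and the nuclear share from 0.159% to 6.00% with a median of 1.57%. One cell, with 901 counts in all, had no mitochondrial count, and 23 cells were above 10%. The median cell held counts of 9 mitochondrial members (0 to 12) and of 13 nuclear members (1 to 78). Of the 108 genes, 92 had at least 50 counts (12 mitochondrial and 80 nuclear), and only these enter counts of members. Below that were 11 nuclear members with 1 to 49 counts, mt-Nd6 with 7, and 4 nuclear members with 0.

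On the scale of CPM per kilobase of exon, the median of the 12 mitochondrial genes was 3187 (250 to 14381) and that of 80 nuclear genes was 89.0 (7.90 to 1189). Counting was by reads primed at the poly(A) tail, so counts need not grow with length and the scale is a convention here. The highest mitochondrial levels were mt-Atp6, subunit a of the ATP synthase, at 14381 CPM per kb, and mt-Co2, subunit 2 of cytochrome oxidase, at 14288, which differed by less than their counting error (15170 and 15139 counts). With mt-Co1, the catalytic subunit of cytochrome oxidase, at 6014 CPM per kb, these 3 genes gave 59.0% of all mitochondrial counts. Next came mt-Co3 at 5148 CPM per kb, mt-Nd1 at 4732, mt-Cytb, the cytochrome b of complex III, at 3329, and mt-Nd4 at 3045. The other complex I subunits were lower: mt-Nd2 1897, mt-Nd3 1742, mt-Nd4l 639 and mt-Nd5 376 CPM per kb.

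Genes that share a transcript had very different counts. In the overlap shown above, mt-Atp8, the upstream frame, had 79 counts (250 CPM per kb) and mt-Atp6, the downstream frame that ends at the tail, had 15170, a ratio of 192. Likewise mt-Nd4l had 294 counts and mt-Nd4 6500, a ratio of 22.1. The counts of mt-Atp8 and mt-Nd4l are therefore not read as levels of those messages. The lone gene of the opposite strand, mt-Nd6, had 7 counts in 7 cells, and it overlaps mt-Nd5 by 14 bases on opposite strands. Whether counting used strand is not given in the sources used here.

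**Figure D1:**
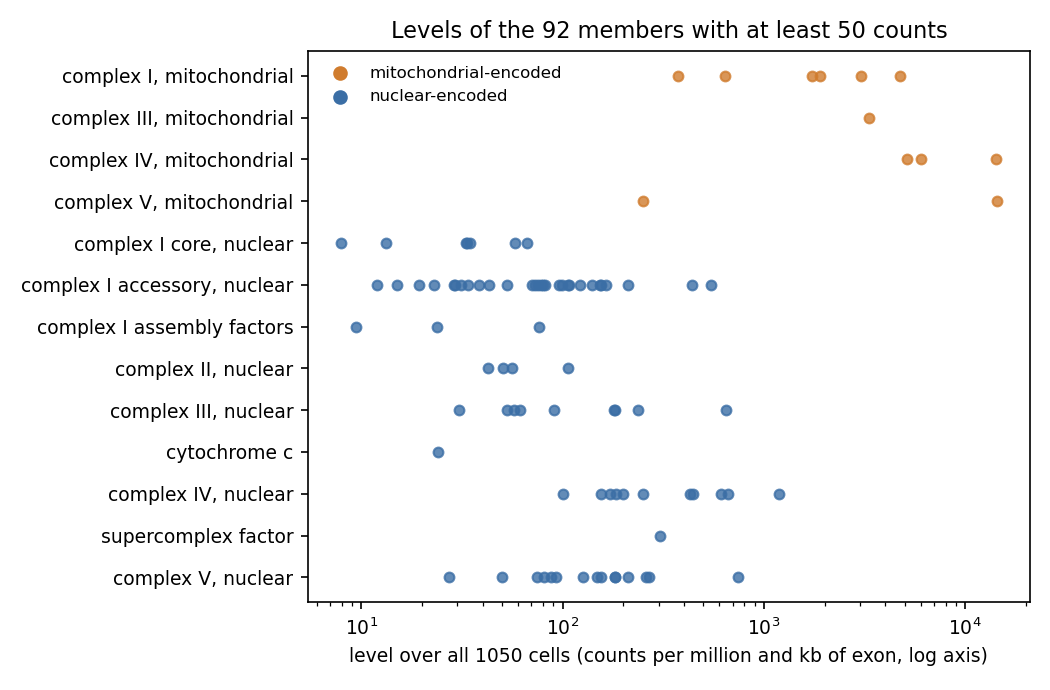
Level of each of the 92 members with at least 50 counts over all 1050 cells, in CPM per kilobase of exon on a log axis, by complex and by genome; 1 point is 1 gene. The 12 mitochondrial genes lie between 250 and 14381 and the 80 nuclear genes between 7.90 and 1189, so the ranges overlap only at the low mitochondrial genes.

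Among nuclear genes, counts were spread evenly enough that the 10 highest gave 35.8% of the set. As shares of the nuclear counts, without correction for length, complex V gave 29.3%, complex IV 28.4%, the accessory subunits of complex I 20.5%, complex III 10.8%, complex II 3.56%, and the core subunits of complex I 3.19%. Within complex IV the highest by CPM were Cox4i1, the largest nuclear subunit, at 952 CPM (614 per kb), Cox8a at 736 CPM (1189 per kb, the highest nuclear value) and Cox6c at 617 CPM (173 per kb). In complex V they were Atp5g3 at 588 CPM (269 per kb), Atp5l at 564 CPM (87.6 per kb) and Atp5c1, the central shaft subunit, at 495 CPM (260 per kb). Complex III was led by Uqcrh, the hinge protein, at 804 CPM (650 per kb), above Uqcrb at 207 CPM (237 per kb) and Uqcrc2 at 157.5 CPM (61.7 per kb).

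Complex I core subunits, which carry the flavin and iron-sulfur clusters, were low throughout. Ndufv2 stood at 66.7 CPM per kb and Ndufs3 at 34.7. The 3 accessory subunits with the most CPM were Ndufa2 at 314 CPM (548.5 per kb), Ndufa6 at 278 CPM (154 per kb) and Ndufa3 at 216 CPM (211 per kb), and Ndufa1, with 183 CPM, was second per kb at 438. Of the assembly factors, which are not part of the finished enzyme, Ndufaf8 had 76.6 CPM per kb, Ndufaf3 23.8 and Ndufaf4 9.43. Complex II, which also works in the citric acid cycle, had 4 genes at 42.7 (Sdhb) to 105.9 (Sdhd) CPM per kb, with Sdha at 50.5 and Sdhc at 55.8. Cyc1, the cytochrome c1 of complex III, stood at 53.1 CPM per kb and Cycs at 23.9.

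Paralogs that encode alternative forms of 1 subunit were nearly all represented by a single form. Cox4i2, a form known from lung and low oxygen, Cox6a2 and Cox8b, forms of heart and skeletal muscle, and Ndufa4l2 had 0 counts each, which allows up to 1.94 CPM each (3 counts of the total). Their partners Cox4i1, Cox6a1, Cox8a and Ndufa4 had 952, 464, 736 and 347 CPM. Cox7a1, the muscle form, had 5 counts against 227 for Cox7a2, and Cox6b2, known from testis, had 2 against 487 for Cox6b1. Cox8c had 3 counts. The ATP synthase ring subunit c differed: its 3 genes, which encode the same mature protein, were all present, with Atp5g3 at 269 CPM per kb, Atp5g2 at 210 and Atp5g1 at 27.3. Cox7a2l, related to Cox7a2 and known to join complexes III and IV into supercomplexes, had 452 CPM (306 per kb).

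Cells were compared by 3 gates, each of at least 1 count: Foxp3, the defining factor of regulatory T cells; Gata3, a factor of Th2 and many tissue regulatory T cells; and any of Ccr7, Tcf7 or Lef1, genes of naive and circulating T cells. The sides held 332 and 718 cells for Foxp3, 572 and 478 for Gata3, and 198 and 852 for the naive genes. A cell without a count may still express the gene, and the positive sides were somewhat deeper (medians of 1304.5 against 1215, 1336 against 1161 and 1371 against 1213.5 counts). The other markers on the lists for these states largely followed the gates, by the call defined below. Of Treg markers, 8 of 9 were higher in Foxp3+ cells, where 7.91% of all genes were. Of markers of Gata3+ or Th2 cells, 5 of 5 were higher in Gata3+ cells (7.14% of all genes), and 4 of 5 without other lineages. Il4, Il5 and Il13 had too few counts to enter. Of naive markers, 5 of 6 were higher in naive-gate cells (4.97% of all genes). The Gata3 gate also took in Treg genes: of 10 Treg markers, 6 were higher and 0 lower in Gata3+ cells. The gates overlap, since 60.5% of Foxp3+ cells and 54.0% of naive-gate cells also had Gata3. A member is called higher or lower at 1.5-fold or more with an interval that leaves out 1.

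Mitochondrial transcripts were lower in Foxp3+ cells, the 13 genes summed and 10 of the 12 with at least 50 counts singly, with intervals below 0. Of all 4789 genes tested, 10.5% had intervals below 0 and 12.7% above. Their summed level was 43011 CPM in Foxp3+ cells and 51880 CPM in Foxp3- cells, a log2 ratio of -0.27 (-0.29 to -0.25). Per cell, the mitochondrial share had a median of 4.14% (0.0488% to 14.7%) in Foxp3+ cells and 4.56% (0 to 19.3%) in Foxp3- cells. The sides overlapped over nearly their whole range, and the gap between their means (4.28% and 4.93%) was smaller than the SDs over cells (1.62 and 2.24). Without other lineages the medians were 4.13% and 4.58%. Without the 97 cells with markers of other lineages the sums were 41779 and 48267 CPM, a log2 ratio of -0.21 (-0.23 to -0.18), and without the 11 epithelial-marker cells alone it was -0.20. Epithelial marker counts were 44 in Foxp3+ and 3172 in Foxp3- cells, with 0 to 31 in a Foxp3+ cell and 0 to 1226 in a Foxp3- cell. Stromal or endothelial ones were 35 and 675. Summed dissociation stress genes, early response genes that tissue digestion induces, had a log2 ratio of 0.11 (0.06 to 0.15) and cell cycle genes one of -0.14 (-0.23 to -0.05). The part of the stress genes was not tested, and without cells holding at least 3 cell cycle genes the mitochondrial ratio was -0.31. With no mitochondrial limit it was -0.46 and with cells thinned to 500 counts -0.17 (-0.24 to -0.11 over 10 draws).

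Single mitochondrial genes ranged in log2 ratio from -0.41 (mt-Nd2, a complex I subunit) to -0.02 (mt-Atp8), with a median of -0.28 where the median over all 4789 genes was 0.01. mt-Nd2 had 1613 CPM in Foxp3+ and 2146 in Foxp3- cells, and it stayed at -0.39 (-0.51 to -0.26) without other lineages. mt-Nd5 stood at 567 against 745 CPM (-0.39, -0.59 to -0.20) and mt-Cytb at 3198 against 4112 CPM (-0.36, -0.45 to -0.28). The 3 subunits of cytochrome oxidase were closer together, with mt-Co1 at -0.21, mt-Co2 at -0.26 and mt-Co3 at -0.27. mt-Atp6 was at -0.29, mt-Nd4 at -0.31, mt-Nd3 at -0.33 and mt-Nd1 at -0.20. Intervals for mt-Atp8 and mt-Nd4l (-0.04) held 0. No mitochondrial gene reached 1.5-fold.

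Nuclear transcripts were lower in Foxp3+ cells by a smaller step, at 16074 against 17884 CPM (log2 ratio -0.15, -0.19 to -0.12), and at -0.08 (-0.12 to -0.04) without other lineages. Of 80 members, 20 lay above 0 and 60 below, with a median of -0.15. By the call, 0 were higher and 8 lower, where 15.2% of all genes tested were called, 7.91% higher and 7.25% lower, so the count of lower members is near the background. In a single draw of cells thinned to 500 counts, 4 were higher and 1 lower of the 55 members that then had 50 counts. Gates were taken from the thinned counts too. The nuclear sum of that draw was -0.02, the highest of -0.14 to -0.02 over 10 draws. Calls were not repeated over draws, so whether their direction depends on thinning was not tested. Complex II had a log2 ratio of 0.00 (-0.20 to 0.20), and core complex I had -0.04 (-0.25 to 0.17). Complex IV had -0.20 (-0.28 to -0.13), complex III -0.17 (-0.28 to -0.05) and complex V -0.14 (-0.21 to -0.07).

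Of the 8 members lower in Foxp3+ cells, 4 were also called without other-lineage cells. Uqcrc1, a core protein of complex III at chr9:108936633-108949623, had 75.8 CPM in Foxp3+ and 151.8 CPM in Foxp3- cells (-1.002, -1.55 to -0.49, then -0.95 without other lineages). Atp5g1, the least abundant ring subunit gene at chr11:96068852-96075670, had 83.5 and 159.5 CPM (-0.93, then -0.81), while Atp5g2 had 392.5 and 333 CPM (0.24, -0.02 to 0.49) and Atp5g3 515 and 624 CPM (-0.28). The genes of the same ring protein thus lay on both sides of 0. Ndufv3, an accessory subunit next to the flavin site of complex I, had 64.1 and 106.3 CPM (-0.73, then -0.62). Ndufb4, of its membrane arm, had 110.7 and 175 CPM (-0.66, then -0.65).

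The other 4 lost the call without those cells. Ndufa12, a complex I accessory subunit, went from -1.15 to -0.76 (-1.78 to 0.17), Ndufb2 from -0.73 to -0.40, Ndufc2 from -0.66 to -0.49 and Cycs from -0.61 to -0.46. Cycs rests on 31 and 95 counts. Its copy Gm10053 had -0.23 (-0.58 to 0.12), and both together had 249 against 312 CPM, a log2 ratio of -0.33 (-0.64 to -0.03). Uqcrq, a small subunit of complex III, was called without other lineages but not in all cells, at 76.0 against 119.5 CPM (-0.65). Ndufb4, and here and below the members called in the second set of cells alone, were named after their values were seen. In a single draw of cells thinned to 500 counts, Ndufc2 stood at 0.32.

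**Figure D2:**
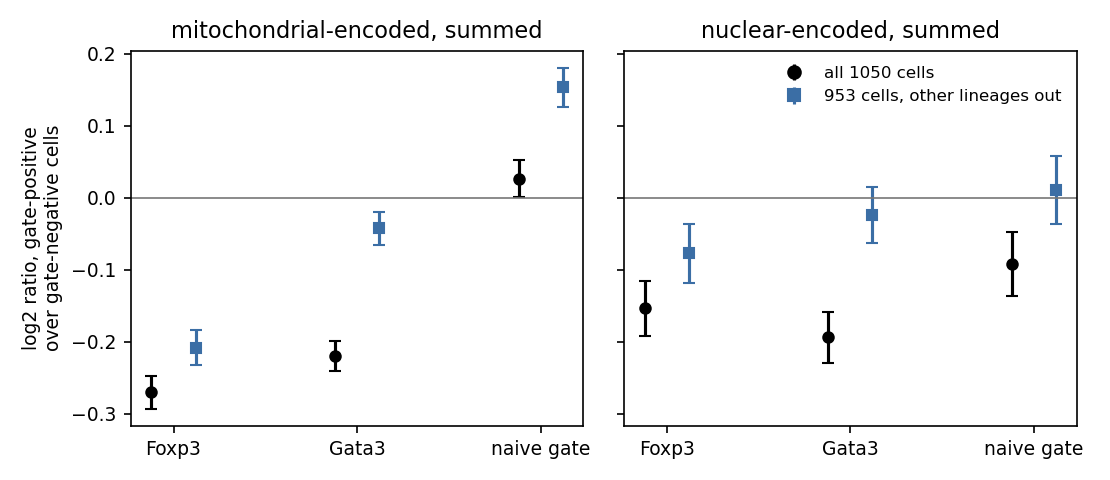
Log2 ratio of the summed CPM of gate-positive over gate-negative cells, for the 13 mitochondrial and the 95 nuclear genes, in all 1050 cells (black circles) and in the 953 cells with fewer than 2 markers of other lineages (blue squares); bars are 95% intervals of counting error. The mitochondrial ratio for Foxp3 stays below 0 in both (-0.27 and -0.21), the Gata3 ratios move close to 0, and the naive-gate mitochondrial ratio goes from 0.03 to 0.15.

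Gata3+ cells had less mitochondrial and nuclear RNA of these genes than Gata3- cells, but nearly all of the gap was gone without the 11 cells with epithelial markers. Summed mitochondrial levels were 45691 and 53216 CPM (log2 ratio -0.22, -0.24 to -0.20), and nuclear levels 16272 and 18618 CPM (-0.19, -0.23 to -0.16). Without the 97 cells the ratios were -0.04 (-0.07 to -0.02) and -0.02 (-0.06 to 0.01), and without the 11 epithelial-marker cells -0.03 and -0.01. Median shares hardly differed even in all cells: 4.42% (0.0488% to 17.3%) against 4.45% (0 to 19.3%) for mitochondrial and 1.56% against 1.60% for nuclear genes. Without other lineages they were 4.42% against 4.44% and 1.53% against 1.58%. Epithelial markers had 21 counts in Gata3+ cells (0 to 2 in a cell) and 3195 in Gata3- cells (0 to 1226). Dissociation stress genes had a sum 0.29 higher in Gata3+ cells (log2 ratio), and cells with at least 3 cell cycle genes were 24.0% of Gata3+ and 14.9% of Gata3- cells (23.0% and 13.6% without other lineages). The part of the stress genes in the result was not tested, and without the cycling cells the mitochondrial ratio was -0.20.

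mt-Nd4l was the 1 mitochondrial member past 1.5-fold, at 154 against 237 CPM (-0.62, -0.96 to -0.28) and the same -0.62 without other lineages. Its partner on the same transcript, mt-Nd4, moved to -0.04 there. As said above, the counts of mt-Nd4l are not read as the level of its message. The call of mt-Nd4l was lost at 1000 counts per cell (-0.56, -0.95 to -0.17). It was also lost in a single draw of cells thinned to 500 counts (-0.26, -0.86 to 0.32). With no mitochondrial limit 3 mitochondrial members were called lower. mt-Nd2 (-0.38, then -0.27), mt-Nd3 (-0.32, then -0.24) and mt-Cytb (-0.29, then -0.09) also kept intervals below 0. mt-Co1, mt-Co3 and mt-Atp8 lay above 0 without other lineages (0.02, 0.05 and 0.32), with intervals that held 0. The remaining ratios in all cells were mt-Nd5 -0.24, mt-Nd1 -0.23, mt-Atp6 and mt-Nd4 -0.21, mt-Co2 -0.21, mt-Co1 -0.19, mt-Co3 -0.14 and mt-Atp8 0.15. In a single draw of cells thinned to 500 counts, mt-Co1 and mt-Nd3 stood at 0.03 and 0.14.

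Of 80 nuclear members, 2 were called higher and 5 lower in Gata3+ cells, where 13.1% of all genes were called (7.14% higher and 5.97% lower). These counts are near or below the background. Ndufa9, of the matrix arm of complex I, had 61.2 against 31.5 CPM (0.96, then 1.09 without other lineages), and Ndufab1, the acyl carrier protein that also sits in complex I, had 122.5 against 79.4 CPM (0.62, then 0.95). Sdhc, the membrane anchor of complex II at chr1:171127165-171150603, was lower at 133 against 246 CPM (-0.89, -1.24 to -0.54, then -0.65), and Uqcrq at 81.7 against 134.9 CPM (-0.72, then -0.84). Ndufa12 (-0.77), Ndufb8 (-0.64) and Atp5k (-0.62) were lower in all cells and were not called without other lineages. In a single draw of cells thinned to 500 counts Ndufa12 stood at 0.23. Without those cells Cycs (0.99, 88.0 against 44.2 CPM), Ndufc1 (0.73) and Ndufa11 (0.73) were called higher in addition, which made 5 higher and 2 lower where 11.5% of all genes were called. In all cells Cycs stood at 0.11 (-0.42 to 0.65) and its copy Gm10053 at 0.04 (-0.29 to 0.36). Both together stood at 0.06 (-0.22 to 0.33), so the Cycs call rests on the choice of cells. Over all 8 calls, mt-Nd4l included, 5 held in both sets of cells.

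Complex II as a whole was lower in Gata3+ cells at 527 against 733 CPM (-0.47, -0.66 to -0.29), the largest step of any nuclear complex. It was -0.22 (-0.43 to -0.01) without other lineages, at which point Sdhb and Sdhd were above 0 (0.13 and 0.14) and Sdha and Sdhc below (-0.24 and -0.65). Complex III (-0.29), complex IV (-0.25) and complex V (-0.16) were also lower in all cells and came to -0.09, -0.05 and 0.00 without them.

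Cells with a naive gene had about the same summed mitochondrial level as the rest in all cells, and a higher one once other lineages were left out. In all cells the sums were 49649 and 48752 CPM (log2 ratio 0.03, 0.00 to 0.05), and without the 97 cells 50021 and 44986 CPM (0.15, 0.13 to 0.18). Without the 11 epithelial-marker cells the ratio was 0.14, and epithelial markers had 5 counts in naive-gate and 3211 in other cells. The per-cell share pointed the same way already in all cells, with a median of 4.84% (0.896% to 12.3%) against 4.32% (0 to 19.3%), and 4.87% against 4.30% without other lineages. Nuclear sums were 16420 and 17500 CPM (-0.09, -0.14 to -0.05), then 0.01 (-0.04 to 0.06), with median shares of 1.56% and 1.58%. With no mitochondrial limit the mitochondrial ratio was -0.15, and it was 0.29 with cells thinned to 500 counts (0.16 to 0.29 over 10 draws), so its direction depends on the limit. Stress genes had a summed log2 ratio of -0.15 (-0.21 to -0.10) and cell cycle genes one of 0.21 (0.11 to 0.31). The part of the stress genes was not tested, and without the cycling cells the mitochondrial ratio was 0.09. Cytosolic ribosomal protein genes, which took 202796 CPM in naive-gate and 163877 CPM in other cells (0.31), add to the total against which these levels are set.

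Among mitochondrial genes mt-Nd3 stood highest, at 715.5 against 579 CPM (0.31, 0.08 to 0.52, then 0.41), followed by mt-Nd2 (0.14, then 0.27 or 2152 against 1779 CPM), mt-Nd5 (0.14, then 0.17) and mt-Nd1 (0.08, then 0.21). The others were close to 0 in all cells: mt-Co1 -0.01, mt-Co2 0.01, mt-Atp6 0.02, mt-Cytb 0.03, mt-Co3 0.04, mt-Nd4l -0.00 and mt-Nd4 -0.05. Without other lineages, 11 of 12 were above 0, and the exception was mt-Atp8 (-0.22) with few counts.

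By the call, 3 nuclear members were higher and 8 lower in naive-gate cells, where 14% of all genes were called, 4.97% higher and 9.02% lower. These are near the background, and their make-up depended on few cells: without other lineages 8 were higher and 1 lower, where 13.4% of genes were called, and 4 of the 11 calls were common to both. Those 4 were Ndufaf4, Uqcrq, Ndufab1 and Ndufb7. Ndufaf4, a chaperone of complex I assembly at chr4:24898083-24905001, had the highest ratio of any member, at 80.2 against 25.9 CPM (1.63, 0.82 to 2.43, then 1.36). It rests on 57 counts in 34 cells, of which 10 cells held 49.1%. Uqcrq (chr11:53427922-53430831) was at 150.8 against 92.9 CPM (0.70, then 0.80). Ndufab1 was at 148 against 92.9 CPM (0.67, then 0.83, but -0.89 with gates and values from different parts of the counts), and Ndufb7, of the membrane arm, was lower at 109 against 189 CPM (-0.79, then -0.76).

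The other lower calls were Ndufb2 (-1.41 on 9 and 95 counts, then -0.93), Uqcr11 (-1.08, then -0.65), Ndufa5 (-0.89, then -0.75), Sdhc (-0.87, then -0.54), Ndufb9 (-0.80, then -0.39), Uqcrc2 (-0.69, then -0.49) and Sdha (-0.60, then -0.43). In each the sign stayed and the interval without other lineages held 0. In a single draw of cells thinned to 500 counts, Ndufb2 and Sdha stood above 0 (0.05 and 0.34). Atp5g1 (0.72), Cyc1 (0.59), Ndufa12 (1.002), Ndufs6 (0.69) and Sdhd (0.72) were called higher without other lineages but not in all cells. Cox7a2l, the supercomplex factor, had 577.5 against 420.3 CPM (0.46, 0.21 to 0.71) in all cells and 0.45 without other lineages, below 1.5-fold in both.

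**Figure D3:**
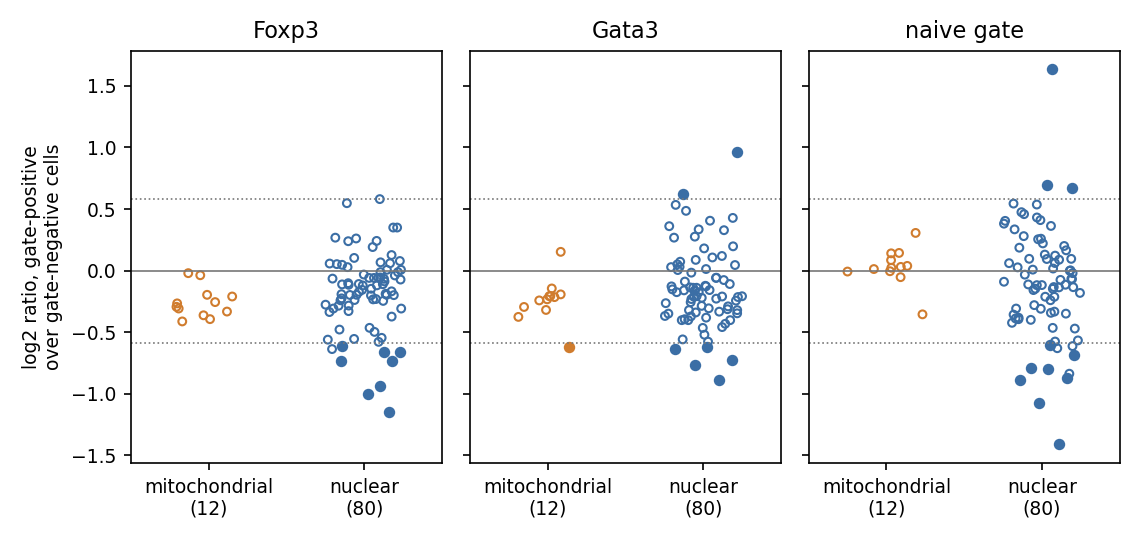
Log2 ratio of gate-positive over gate-negative cells for each of the 92 members with at least 50 counts, in all 1050 cells; filled points were called (1.5-fold or more, dotted lines, with an interval that leaves out 1), and sideways spread is for display. The 12 mitochondrial genes lie between -0.41 and -0.02 for Foxp3, between -0.62 and 0.15 for Gata3 and between -0.35 and 0.31 for the naive gate, while the nuclear genes reach from -1.41 (Ndufb2) to 1.63 (Ndufaf4), both for the naive gate.

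Cells were also grouped by all gates at once. The 4 combinations with Foxp3 had pooled mitochondrial levels of 39226 to 46430 CPM, against 46655 to 58401 CPM in the 4 without. The 2 sets met within counting error: the nearest were 46430 CPM (44497 to 48426) in cells positive for all gates and 46655 CPM (45999 to 47318) with Gata3 alone. Without other lineages the order of these 2 turned, again within counting error. The 24 cells positive for all gates then had 46577 CPM and the 267 cells with Gata3 alone 46501 CPM. The highest, 58401 CPM, was in the 266 cells negative for all gates, and it was 48130 CPM in the 233 of them without other-lineage markers. The 81 cells with a naive gene and neither Foxp3 nor Gata3 had 53624 CPM, and 54631 CPM in the 74 without other-lineage markers, then the highest of the 8 combinations. Their median share was 5.43% (0.896% to 12.3%), where the other 7 combinations had medians of 4.05% to 4.73%. Nuclear levels spanned 14779 to 20128 CPM in all cells and 14274 to 17075 CPM without other lineages.

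**Figure D4:**
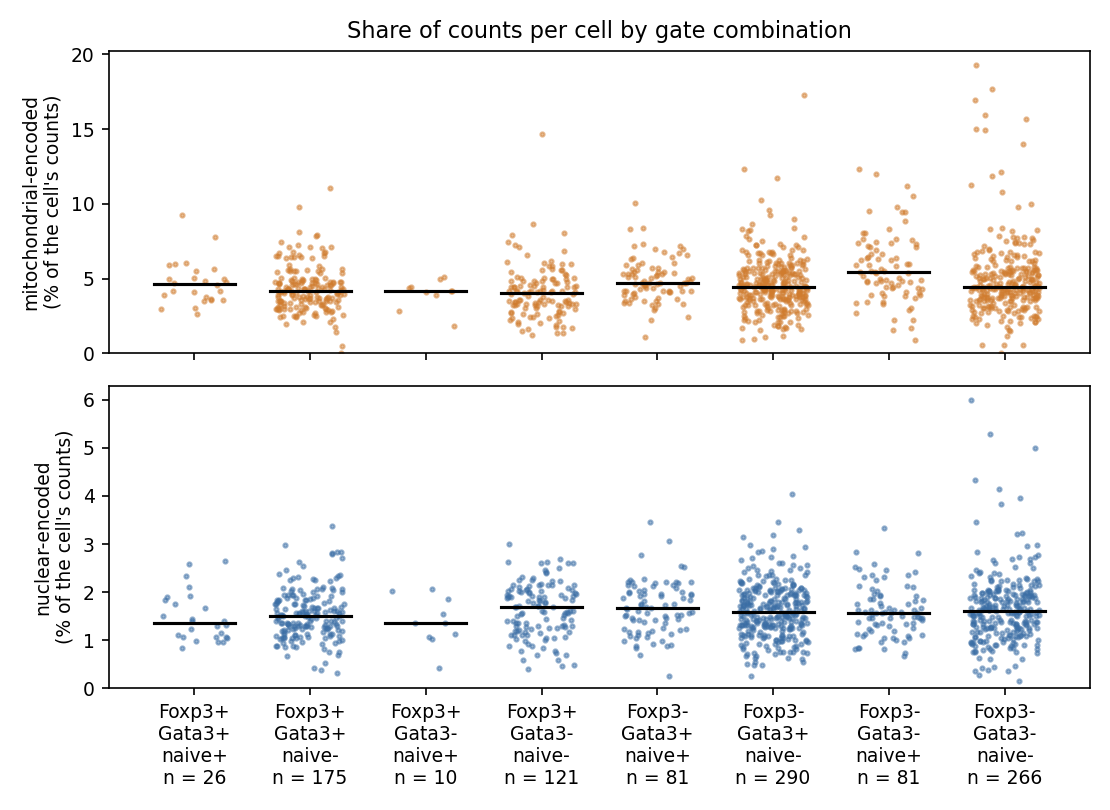
Share of each cell's counts from mitochondrial genes (top, % of counts) and nuclear oxidative phosphorylation genes (bottom, % of counts) in the 8 combinations of the gates; 1 point is 1 cell and lines are medians. The median mitochondrial share is highest, at 5.43%, in cells with a naive gene and neither Foxp3 nor Gata3, and the cells of all combinations overlap.

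Within strata, the Foxp3 ratio of mitochondrial sums was -0.12 (-0.15 to -0.09) among Gata3+ cells and -0.43 (-0.47 to -0.39) among Gata3- cells, the stratum with the epithelial-marker cells. Among naive-gate cells it was -0.19 and among the others -0.29. Without other lineages these 4 ratios were -0.13, -0.34, -0.20 and -0.19. The Gata3 ratio was 0.03 (-0.01 to 0.07) among Foxp3+ cells and -0.28 among Foxp3- cells, then 0.12 (0.08 to 0.16) and -0.08 (-0.11 to -0.06) without other lineages. The naive-gate ratio was 0.06 (0.01 to 0.12) among Foxp3+ and -0.04 (-0.07 to -0.01) among Foxp3- cells, and it was above 0 in both without other lineages, at 0.11 (0.05 to 0.17) and 0.12 (0.09 to 0.15). With 1 sample, the difference between strata was not tested.

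The measured mitochondrial and nuclear shares of a cell were nearly unrelated. Over 1050 cells, which share 1 library preparation and whose shares have the same total below the line, Pearson's r was 0.05 and Spearman's rho -0.03, and thinning each cell to 500 counts left r at 0.05. Over the 953 cells without other lineages r was -0.06. Genes of the mitochondrial genome varied together: r was 0.42 for the shares of mt-Co1 and mt-Co2, 0.43 for mt-Co1 and mt-Atp6, and 0.24 for mt-Nd1 and mt-Nd4 (0.34, 0.35 and 0.21 without other lineages). Cox4i1 and mt-Co1, subunits of the same enzyme from the 2 genomes, had r of -0.04, then -0.06. These pairs differ in depth, since Cox4i1 had 1474 counts in 48% of cells and mt-Co1 14392 in 99.0%. Counting noise pulls r towards 0 for sparse genes and for shares of few counts. Its part was not tested, and no pair of nuclear genes was compared. Depth was related weakly to the nuclear share (r with log10 counts 0.19, and 0.15 after thinning), and r was 0.03 for the mitochondrial share (0.11 and -0.07 without other lineages). The 208 cells with at least 3 cell cycle genes had 19046 CPM of nuclear transcripts against 16544 CPM in the other 842, whereas mitochondrial levels were 49531 and 48682 CPM. Their median depths were 1909.5 and 1165.5 counts. Without other lineages the nuclear levels were 17653 and 15792 CPM and the mitochondrial ones 46108 and 46008 CPM.

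**Figure D5:**
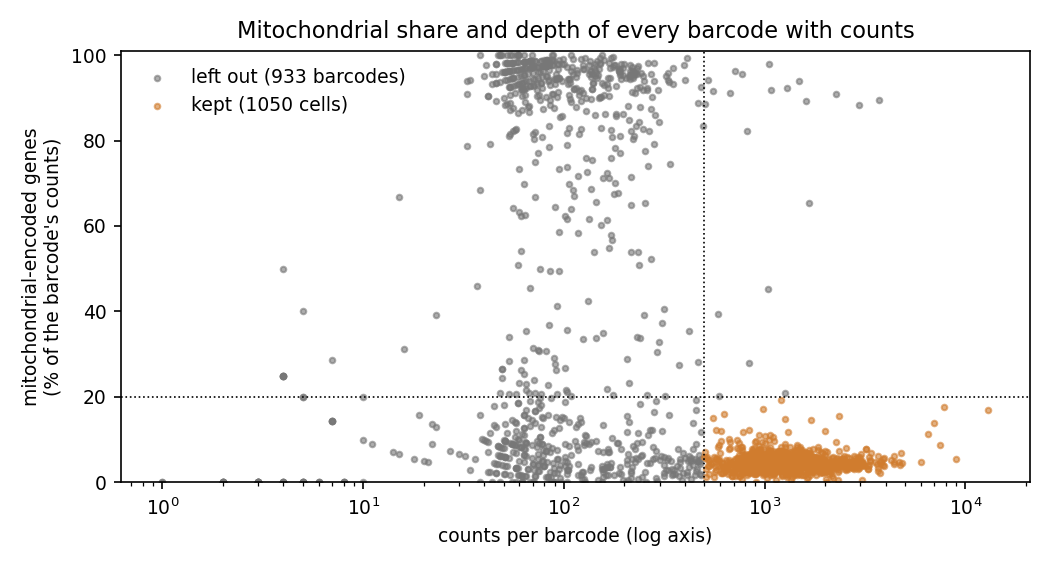
Mitochondrial share of the counts (%) against counts per barcode (log axis) for the 1050 cells kept and the 933 barcodes left out that had counts; dotted lines are the limits of 500 counts and 20%. Of the 912 barcodes below 500 counts, 404 lie under 20%, 374 above 80% and 134 between, and the cells kept lie between 0 and 19.3% at all depths.

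Other mitochondrial genes were counted from lists, by the same call. Of all genes tested, 7.91% were called higher and 7.25% lower for Foxp3. These shares were 7.14% and 5.97% for Gata3, and 4.97% and 9.02% for the naive gate. Without other lineages they were 7.98% and 6.62%, 6.41% and 5.1%, and 5.2% and 8.24%. Of 19 genes of the citric acid cycle and pyruvate dehydrogenase, 0 were higher for any gate, and 1, 3 and 1 were lower in Foxp3+, Gata3+ and naive-gate cells (0, 1 and 0 of 16 without other lineages). Of 51 mitochondrial ribosomal proteins, 2 were higher and 5 lower in Foxp3+ cells, 1 and 5 in Gata3+ cells, and 0 and 4 in naive-gate cells. Mrpl12 was lower (-1.31) and Mrpl19 higher (1.01) in Foxp3+ cells, and both calls held without other lineages (-0.95 and 1.01). Of 14 import genes, 0 were higher and 4 lower in Foxp3+ cells, where 7.25% of all genes were lower, and 2 of 12 were lower without other lineages. Those 2 were the import pore subunit Tomm5 (-1.15, then -1.39) and the receptor Tomm70a (-1.03, then -0.91), and the calls of Timm10b (-0.76) and Timm22 (-0.99) were lost. For Gata3, Timm22 was higher (1.29) and Tomm5 lower (-0.70), neither of them without other lineages. For the naive gate, Tomm70a was higher (0.59), a call lost without other lineages, and Timm8b lower (-1.18, then -1.06). Of 17 carrier, channel and redox genes, 0 were called for Foxp3, 2 were lower for Gata3 (Chchd10 -0.98 and Atpif1 -0.80) and 1 for the naive gate (Chchd10 -1.14), and none was called without other lineages.

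Assembly factors outside the naming rule, 15 genes, gave no call for Foxp3 and 1 lower for Gata3 (Higd1a, -1.11), where 5.97% of all genes were lower. For the naive gate 4 were lower, where 9.02% of all genes were. The latter included Coa3 (-2.82 on 2 and 56 counts), Cox17, a copper chaperone of complex IV (-1.12, then -1.32), and Higd1a (-0.96). Of these 5 calls, that of Cox17 held without other lineages. Uqcc3 was called higher in naive-gate cells only without other lineages (0.71). Among 5 regulators of mitochondrial biogenesis, Nrf1, the factor of the motif above, was higher in Foxp3+ cells at 77.7 against 39.6 CPM (0.97, 0.31 to 1.64, then 0.93). Gabpb2, a subunit of GABP, was lower in Foxp3+ cells (-0.80, then -0.74) and higher in naive-gate cells at 128 against 47.7 CPM (1.43, then 1.55). Ppargc1b, a coactivator of respiratory genes, was higher in Gata3+ cells (0.68, then 0.62). Of 5 genes of mitochondrial transcription and RNA stability, Mtpap, the mitochondrial poly(A) polymerase, was higher in Foxp3+ cells (0.92, then 1.02), and Ssbp1, which binds single-stranded mitochondrial DNA, was lower there (-1.06, then -0.99) and in naive-gate cells (-1.05, not called without other lineages).

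Genes of fuel oxidation upstream of the chain were counted likewise, against the same shares of all genes. Of 12 genes of fatty acid oxidation, Slc25a20, the carnitine carrier, and Etfa, an electron transfer flavoprotein, were higher in Foxp3+ cells (1.24 and 0.83, then 1.65 and 1.20), and Hadh was lower (-0.90) but not called without other lineages. For Gata3, Acadm (-1.44) and Acadvl (-0.73) were lower, and for the naive gate Acadm (-1.33). None of these held without other lineages, where Hadh was called higher in Gata3+ cells (0.95). Of 13 glycolysis genes, the glucose transporter Slc2a3 was higher (0.72) and Hk2 lower (-1.55) in Foxp3+ cells, neither of them without other lineages. Without other lineages Tpi1 was called higher in Foxp3+ cells instead (0.69, 0.30 to 1.07). For Gata3, 0 were called in all cells, and Pfkp was called higher without other lineages (0.77, 0.12 to 1.46). Slc2a3 (-0.81), Hk1 (-0.78) and Aldoa (-0.60) were lower in naive-gate cells. Of these 3, Slc2a3 was also called without other lineages (-0.75). The 84 cytosolic ribosomal protein genes with 50 counts gave 0 calls for Foxp3 and Gata3 and 3 higher for the naive gate, among them Rpl23a at 0.59, with summed log2 ratios of -0.19, -0.10 and 0.31 for Foxp3, Gata3 and the naive gate.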

How the data were processed

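Single-cell RNA of 4 labelled samples in 1 group was measured by inDrops. The authors deposited 1 table of counts, with barcodes in rows and genes in columns. TopHat2, SAMtools and mm10 are named without versions or roles, per the submitters' processing notes. How reads were counted, molecular identifiers collapsed, genes annotated and barcodes filtered is not given in the sources used here, so amplified copies may be among the counts. Barcodes with at least 500 counts, 200 genes and under 20% mt- counts were kept. Levels are CPM, compared as log2 ratios with exact conditional 95% intervals (SciPy 1.17.1), levels and shares with exact Poisson and binomial intervals, and genes with at least 50 counts were tested. A side of 0 was set to 3 counts. Because barcodes carry no sample, edgeR and tests over samples could not be used. The members, lists and gates were chosen with earlier results of these data known. Named are all mt- genes with 50 counts, cytochrome c, complex II, the 3 highest nuclear genes by complex, fixed paralogs, members called per gate (6 each way) and up to 3 called per other list. Some genes that this rule names are not reported here. Annotation is GENCODE vM21 (GRCm38), where 107 of 108 members matched. Copies were found with BLAST+ 2.17.0 and doublets with Scrublet (Scanpy 1.11.5), and the 9 cells it called were kept. The ratio code was tested on simulated data. Alternatives changed the depth and mt- limits, thinning, weighting, denominator, gates, fold and cells left out. Leaving out epithelial-marker or cycling cells was added after the data were seen, as were the member, list, gate combination, stratum and per-cell values without other lineages.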

Additional observations from a re-analysis of the deposited data

Results flagged for a closer look

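Barcodes outside the comparisons carried mitochondrial signal far above that of the cells. In the 912 barcodes with 1 to 499 counts (115849 counts), mitochondrial genes took 46.1% of the counts, and there were 51.6 mitochondrial counts for each nuclear oxidative phosphorylation count, against 2.83 in the cells kept. Of these barcodes, 374 were above 80%, 404 under 20% and 134 between. In that signal mt-Co1 led with 22.1% of mitochondrial counts (19.0% in cells), and mt-Co2 gave 14.8% (19.97% in cells). Among the 8 barcodes over the mitochondrial limit alone, the highest share was 89.4%, and a further 13 barcodes with under 200 genes held 82.3% to 97.9%.

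Copies outside the named set also held counts. Gm10053, the copy of Cycs, had 325 counts, more than Cycs itself with 126. Gm4076, a processed pseudogene on chromosome 13 that matched mt-Nd5 over 954 bases at 95.2% identity, had 271 counts, and its log2 ratio for Foxp3 was -0.51 (-0.93 to -0.12), beside -0.39 for mt-Nd5.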

How the results depend on the processing

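No paired analysis was possible because the table does not separate the 4 samples, and for the same reason no replicate could be left out. Values are log2 ratios, positive over negative cells, and the cause of each shift was not tested. The summed mitochondrial ratio for Foxp3 (-0.27) was -0.46 with no limit on mitochondrial counts, -0.17 with cells thinned to 500 counts, -0.20 with cells weighted equally, -0.35 with a gate of 2 counts, -0.21 without other lineages, -0.20 without epithelial-marker cells, -0.31 without cycling cells and -0.45 for cells positive for 1 gate only against cells negative for all. For Gata3 (-0.22) the same settings, other than the gate of 2 counts, gave -0.47, -0.05, -0.09, -0.04, -0.03, -0.20 and -0.32, with -0.25 at 1000 counts per cell and -0.18 with gates and values taken from different random parts of each cell's counts. For the naive gate (0.03) they gave -0.15, 0.29, 0.17, 0.13, 0.15, 0.14, 0.09 and -0.12, with -0.01 at 1000 counts. The nuclear ratio for Foxp3 (-0.15) was -0.02 thinned, -0.07 equally weighted, -0.08 without other lineages, -0.06 without epithelial-marker cells and -0.25 for 1 gate only. For Gata3 (-0.19) it was -0.08, -0.04, -0.02, -0.01 and -0.28, with -0.24 at 1000 counts, and for the naive gate (-0.09) -0.01 equally weighted, 0.01 without other lineages, 0.01 without epithelial-marker cells, -0.27 for 1 gate only and -0.05 from different parts. Over 10 draws, thinning gave mitochondrial sums of -0.24 to -0.11 for Foxp3, -0.12 to -0.05 for Gata3 and 0.16 to 0.29 for the naive gate, and nuclear sums of -0.14 to -0.02, -0.14 to -0.04 and -0.08 to 0.05.

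Nuclear members called for Foxp3 (8, all lower) numbered 5 thinned (4 higher and 1 lower), 5 without other lineages, 4 without epithelial-marker cells (all lower in both) and 13 at a lower minimum fold. For Gata3 (7, of which 5 lower) they numbered 3 from different parts, 12 for 1 gate only (all lower) and 15 at a lower minimum fold, and for the naive gate (11, of which 8 lower) 5 thinned (3 lower), 6 from different parts (5 lower), 7 without epithelial-marker cells (4 lower) and 19 at a lower minimum fold. Equal weighting gives no count. Calls and values of single members and complexes come from a single draw of thinning and of different parts. Gates for thinned cells were taken from the thinned counts. Of 117 alternative values of the sums and counts, 64 stayed within the interval for all cells or within 1.5 times the count. Another 48 left it and 5 changed sign. For each gate, 1 of the values that stayed was the sum of protein-coding mitochondrial genes only. That sum is the main one, because all mitochondrial genes here are protein coding. A further 1104 values were for complexes, for mitochondrial genes with 50 counts and for called members. Sign changes were counted only where the interval for all cells left out 0. Of the 1104, 30 changed sign in this way. Thinned to 500 counts these were Ndufc2 (0.32), mt-Co1 (0.01) and mt-Nd1 (0.00) for Foxp3, Ndufa12 (0.23), mt-Co1 (0.03), mt-Nd3 (0.14) and nuclear complex III (0.04) for Gata3, and Ndufb2 (0.05) and Sdha (0.34) for the naive gate. For Gata3 without other lineages they were mitochondrial complex IV (0.00), complex I accessory subunits (0.02), nuclear complex V (0.00), mt-Co1 (0.02) and mt-Co3 (0.05), and without epithelial-marker cells the same at 0.02, 0.04, 0.02, 0.04 and 0.06. Equal weighting gave complex I accessory subunits 0.00 for Gata3. With no mitochondrial limit the naive gate gave mitochondrial complex I -0.11, mt-Nd1 -0.06, mt-Nd2 -0.01 and mt-Nd3 -0.05. For 1 gate only, mitochondrial complex I was -0.10, mt-Nd1 -0.15 and Ndufab1 -0.05 for the naive gate, and Ndufab1 was -0.08 for Gata3. From different parts, mitochondrial complex I was -0.00 and Ndufab1 -0.89 for the naive gate. At this depth a member of 50 counts has an interval of more than 1.5-fold either way, so a difference of that size was not detectable in the lowest members.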
